A study of Oryza sativa Indica Group with 4 samples.

Results

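The gibberellin genes described here are 9 genes of hormone synthesis, breakdown and signalling, chosen by name: KAO, GA20ox1, GA20ox2, GA3ox2, GA2ox1, GA2ox3, GID1, SLR1 and GID2. Probe sets were taken where the array's annotation, with symbols and synonyms from NCBI's gene table, carried one of these names. This gave 6 probe sets of 57194 on the array, for 5 of the 9 names: KAO, GA20ox2, GID1 (2 probe sets), SLR1 and GID2. GA20ox1, GA3ox2, GA2ox1 and GA2ox3 were not matched and are not analysed here, so both breakdown enzymes and the enzyme of the last activating step are missing from the comparison. The RNA came from young panicles (panicle primordia, numbered stage 0 by the submitters) of indica rice, Oryza sativa Indica Group, and was read on Affymetrix rice arrays. It was pooled from 10 recombinant inbred lines per bulk, that is, lines fixed by selfing after a cross, here of 2 cultivars. High bulks pooled lines bearing many grains per panicle and low bulks lines bearing few, with 2 biological replications of each and 4 arrays in all. A bulk hides the values of its lines, no treatment is named in the labels, and nothing says whether both replications used the same lines.

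Gibberellins are diterpenoid hormones that drive stem and leaf elongation and take part in flower and anther development. The terpene cyclases CPS1 and KS1 and the oxidases KO2 and KAO build the gibberellin skeleton, the GA20ox and GA3ox enzymes make the active hormone, and the GA2ox enzymes and EUI1 inactivate it. In rice the receptor GID1 binds active gibberellin and then the DELLA repressor SLR1, which the F-box protein GID2 marks for destruction. In meristems of rice and other plants, gibberellin synthesis is kept low by KNOX transcription factors, and GA20ox2 is the semidwarf gene SD1 of modern rice varieties.

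Intensities are quantile normalised. Differences are high minus low on the log2(intensity + 16) scale, with limma's moderated standard error (SE) and the 95% interval it gives. The 16 added to each value pulls the differences of dim probe sets towards 0. Of 34316 probe sets tested, 0.568% passed a Benjamini-Hochberg adjusted p of 0.05 in limma (two-sided), and 8.24% had an unadjusted p under 0.05. With 2 arrays per group, limma's SE, interval and p-value borrow much of their spread from other probe sets of like intensity (prior degrees of freedom 9.05). A p-value here reflects no more than how probe sets vary over these few arrays. The deposited trimmed mean signal was 36.5 to 40.5 on 3 arrays and 55.3 on low replicate 2. Markers of panicle and meristem tissue were measured on all arrays. The KNOX gene OSH1 has 2 probe sets, which differ in direction: one had 774.8 and 617.8 in the high bulks against 612.7 and 516.3 in the low bulks, and the other 527.1 and 605.5 against 762.9 and 650.1. The KNOX gene OSH71 had 102.9 and 142.8 against 167.9 and 146.9, and none of these 3 probe sets passed the test (smallest limma adjusted p 0.745). The summed intensity of 10 such markers was 2051.8 to 2217.1 in the high bulks against 2058.3 to 2395.3 in the low bulks.

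Some features of the arrays moved with the groups. The summed intensity of 5 secondary wall markers, which stand for stem tissue, was 78.9 to 104.6 in the high bulks against 357.3 to 438.2 in the low bulks. Not all of them were lower in the high bulks. A second gene named BC1, LOC4347540, had 26.9 and 17.8 in the high bulks against 16.2 and 19.6 in the low bulks. The dimmer probe set of CESA4 had 13.7 and 17.4 against 12.1 and 20.1. Of 6 anther and tapetum markers, RTS was at 1.52 and 0.875 in the high bulks against 223.9 and 552.7 in the low bulks. The sum of all 6 was 1169.6 to 1355.6 in the high bulks and 1411.5 to 1683.0 in the low bulks. Without RTS it was 1354.1 and 1168.7 against 1187.6 and 1130.3, which overlap. Most of that sum was MSP1, with 1236.0 and 1041.1 against 1079.5 and 1010.1. By its brightest probe set, each of these 5 markers overlapped between the groups. The sums of the 3 leaf markers overlapped, at 1998.5 to 2499.2 and 2159.4 to 2577.9, and CAB2R made up most of each sum. The other leaf markers differed in direction by their brightest probe sets. RBCS had 40.1 and 64.7 in the high bulks against 34.7 and 33.6 in the low bulks, and RCA 49.1 and 37.5 against 63.9 and 53.2. None of the 3 passed the test (smallest limma adjusted p 0.714). The 3' to 5' ratio of actin signal reflects how intact the RNA was. It stood at 33.3 and 36.9 in the high bulks against 42.2 and 47.8 in the low bulks. A second pair of actin probe sets gave 27.5 and 24.8 against 39.7 and 36.0. By both pairs the 3' signal was many times the 5' signal on all 4 arrays. The part of these features in the gibberellin gene values was not tested.

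None of the measured gibberellin genes passed the test. Of 5 probe sets tested, 0 passed the adjusted p (smallest limma adjusted p 0.856) and 0 had an unadjusted p under 0.05, against the backgrounds of 0.568% and 8.24%. Their differences ran from -0.26 to 0.13 with a median of -0.01, and the median over all probe sets tested was 0.01. The 95% intervals of all 5 lay between -1 and 1, so each excluded a 2-fold change of intensity plus offset in either direction. For the bright probe sets of GID1, SLR1 and GF14E this is close to a 2-fold change of intensity. For the dim probe sets of KAO and GA20ox2 a 2-fold change of intensity is a smaller step on this scale. Their intervals did not exclude a 2-fold lower intensity in the high bulks. With a smaller offset the interval of KAO also reached below -1.

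**Figure D1:**
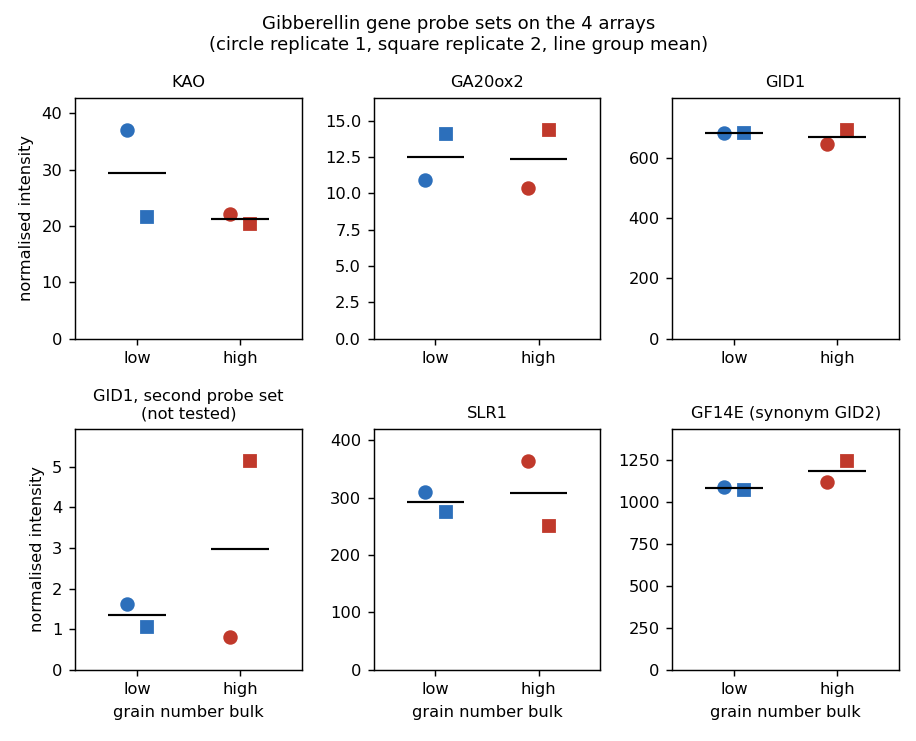
Normalised intensity (vertical axes, linear, each from 0) of the 6 gibberellin gene probe sets in the low and high grain number bulks. Each point is 1 array and the line is the mean of 2; the groups overlap in 5 panels, and for GF14E both high arrays (1120.8 and 1246.3) lie above both low arrays (1090.8 and 1069.4).

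Of the synthesis genes, KAO (LOC4339885) encodes the oxidase that turns kaurenoic acid into the first gibberellin. Its normalised intensity was 22.1 and 20.4 in the high bulks (replicates 1 and 2, in this order throughout) against 37.1 and 21.6 in the low bulks. Low replicate 1 stood above the other 3 arrays, which lay close together. The group means were 21.2 ± 1.22 (SD, n = 2) and 29.4 ± 11.0, and the log2 difference was -0.26 ± 0.23 (SE, 95% interval -0.76 to 0.23, limma adjusted p = 0.856). Without low replicate 1 the difference was -0.02, and without low replicate 2 it was -0.51. With 1 in place of 16 added it was -0.40 with an interval from -1.19 to 0.38, which includes a 2-fold lower value in the high bulks. In the intensities as deposited, 20.3 and 19.7 against 32.2 and 27.2, the groups did not overlap, but the low replicate 2 array was also the brightest array.

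GA20ox2 (LOC4325003) encodes a gibberellin oxidase of the late pathway. It was dim, with 10.4 and 14.4 in the high bulks against 10.9 and 14.1 in the low bulks. In both kinds of bulk the replicate 2 array read higher than replicate 1, and the groups overlapped. The means were 12.4 ± 2.81 (SD, n = 2) and 12.5 ± 2.26, with a log2 difference of -0.01 ± 0.20 (SE, 95% interval -0.44 to 0.43, limma adjusted p = 0.998). With 1 in place of 16 added, the difference was -0.02 and its interval widened to -0.93 to 0.89, so a change approaching 2-fold in either direction was not excluded for this dim probe set.

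Of the signalling genes, the receptor gene GID1 (LOC4338764) had intensities of 644.6 and 693.6 in the high bulks against 683.2 and 683.6 in the low bulks. The 2 low values lay between the 2 high values. The log2 difference was -0.03 ± 0.17 (SE, 95% interval -0.40 to 0.34, limma adjusted p = 0.988). As a fold, high over low, this is an interval from 0.757 to 1.27. The second GID1 probe set read 0.8, 5.15, 1.62 and 1.05 on high 1, high 2, low 1 and low 2, under the filter on dim probe sets, and was not tested.

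SLR1 (LOC4333860), the DELLA repressor, had 364.6 and 250.3 in the high bulks against 310.0 and 274.9 in the low bulks. Both low values again lay between the high values, and the high arrays were the farther apart. The means were 307.4 ± 80.8 (SD, n = 2) and 292.5 ± 24.8, with a log2 difference of 0.05 ± 0.22 (SE, 95% interval -0.43 to 0.53, limma adjusted p = 0.986). Its sign depended on the setting: the deposited scaling gave a difference of -0.13 and median centring one of -0.12, and it ran from -0.21 to 0.31 when 1 array was left out.

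The name GID2 led to a probe set whose gene is not plainly the F-box gene. It is paired with LOC4329775, which carries both GF14E, the name of an adapter protein of another family, and GID2 among its synonyms. A second locus, LOC112937812, carries only GID2, overlaps LOC4329775 in the gene table's assembly (ASM3414082v1) and is paired with no probe set here, so which of the 2 transcripts is read cannot be told. The probe set, called GF14E below, had 1120.8 and 1246.3 in the high bulks against 1090.8 and 1069.4 in the low bulks. The high arrays lay above the low arrays by a small margin, as they did without overlap for 19.6% of all probe sets tested. The log2 difference was 0.13 ± 0.16 (SE, 95% interval -0.22 to 0.47, limma adjusted p = 0.912), and both the deposited scaling and median centring gave -0.02.

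Synthesis and signalling were set side by side through each probe set's deviation from its own mean over the 4 arrays. For the 2 synthesis genes, KAO and GA20ox2, the mean deviation was -0.10 and -0.03 in the high bulks against 0.15 and -0.02 in the low bulks. The 3 signalling probe sets are those of GID1, SLR1 and GF14E, the last of which may not read GID2. For them the mean deviation was 0.07 and -0.02 in the high bulks against 0.01 and -0.06 in the low bulks. High minus low was -0.14 for synthesis and 0.05 for signalling, and in both roles the high and low arrays overlapped. The synthesis value was -0.05 without low replicate 1, and the signalling value was -0.11 with the deposited scaling or median centring, so the difference in sign between the roles depended on the scaling. No breakdown name among the 9 was matched to a probe set, so breakdown could not be set beside these roles.

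The other genes of the pathway came from a list of 43 names. Of these names, 24 matched no gene in the gene table, all the listed GA2ox names among them. A further 3 matched a gene with no probe set. An unmatched name may still have a probe set on the array, so these counts cover only part of the pathway. The remaining 16 names led to 15 genes on the array, and 11 genes passed the filter. Of these 11, 0 passed the adjusted p (limma, 1 at an unadjusted p under 0.05), against 0.568% and 8.24% of all probe sets. The median difference was -0.06, with 6 negative and 5 positive. A gene with several probe sets is counted by the brightest one.

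The 4 early synthesis genes tested all had a lower mean in the high bulks, and none passed the test. CPS1 (LOC4329013) encodes the cyclase of the first committed step. It had 23.6 and 31.4 in the high bulks against 93.6 and 40.1 in the low bulks. Both high arrays lay below both low arrays, and low replicate 1 was by far the brightest. The means were 27.5 ± 5.55 (SD, n = 2) and 66.9 ± 37.8, and the log2 difference was -0.86 ± 0.29 (SE, 95% interval -1.50 to -0.21). Its unadjusted p was 0.014 and its limma adjusted p 0.412, the smallest among all pathway genes tested. Without low replicate 1 the difference was -0.37 and without low replicate 2 it was -1.34, with limma adjusted p between 0.0923 (median centring) and 1.0 over the alternatives.

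KO2 (LOC4341347) encodes the kaurene oxidase whose loss gives the dwarf d35. Its brighter probe set had 42.3 and 19.3 in the high bulks against 54.5 and 45.2 in the low bulks, and its log2 difference was -0.53 ± 0.26 (SE, 95% interval -1.10 to 0.03, limma adjusted p = 0.649). Its dimmer one had 17.6 and 7.42 against 18.9 and 20.4, a difference of -0.34 ± 0.22 (limma adjusted p = 0.778). In both, high replicate 2 was the lowest array and high replicate 1 was just below the low arrays. Without high replicate 2 the brighter probe set stood at -0.17. Both probe sets have the suffix that Affymetrix gives to probes shared with other sequences, and KO2 has close relatives next to it in the genome, so these signals may not be of KO2 alone.

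KS1 (LOC4336960), the cyclase that follows CPS1, had 41.9 and 20.6 in the high bulks against 54.3 and 32.3 in the low bulks. The groups overlapped, and replicate 2 was the lower array in both. Its log2 difference was -0.34 ± 0.27 (SE, limma adjusted p = 0.843), from a probe set that Affymetrix also marks as shared between sequences. It was -0.01 without high replicate 2, -0.07 without low replicate 1 and -0.67 without high replicate 1. KOL4 (LOC4341343), a relative of KO2 that works mainly in the making of defence diterpenoids, had 13.8 and 9.18 against 15.6 and 23.0. Its groups did not overlap, with a difference of -0.36 ± 0.21 (limma adjusted p = 0.747). CPS2, CPS4, KS4 and KOL5, which are known from rice defence diterpenoids, were under the filter and not tested, with intensities of 0.25 to 4.62 on the 4 arrays.

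**Figure D2:**
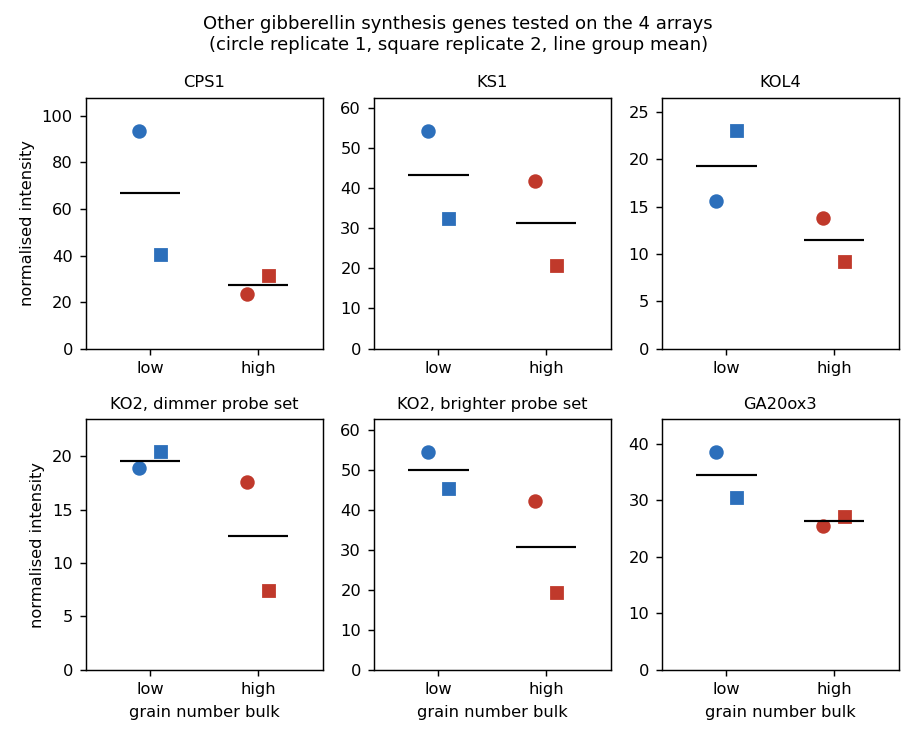
Normalised intensity (vertical axes, linear, each from 0) of the 6 probe sets of the other synthesis genes that were tested, in the low and high grain number bulks. Each point is 1 array and the line is the mean of 2; the groups overlap for KS1 and are apart, high below low, in the other 5 panels (2 of them of KO2), as for 17.6% of all probe sets tested, with CPS1 at 93.6 on low replicate 1 and at 23.6 to 40.1 elsewhere.

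GA20ox3, a further late oxidase gene, had 25.5 and 27.0 in the high bulks against 38.5 and 30.3 in the low bulks. The high arrays lay close together below the low arrays, with a log2 difference of -0.25 ± 0.21 (SE, 95% interval -0.70 to 0.20, limma adjusted p = 0.849). EUI1 (LOC4339131) is a cytochrome P450 that inactivates gibberellin and acts in the uppermost internode below the rice panicle. Of the breakdown names, only EUI1 was matched to a probe set. It had 26.4 and 15.2 in the high bulks against 16.8 and 18.9 in the low bulks, with both low values between the high ones. Its log2 difference was 0.10 ± 0.22 (SE, 95% interval -0.37 to 0.58, limma adjusted p = 0.957).

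Counted together, KAO, GA20ox2, CPS1, KS1, KO2, KOL4 and GA20ox3 make 7 genes tested from the synthesis lists. All 7 had a negative difference, where 47.9% of all probe sets tested did, with a median of -0.34 against 0.01 over all probe sets. The high arrays lay below the low arrays without overlap for 4 of the 7, where 17.6% of all probe sets did. As deposited, 6 of the 7 lay lower without overlap, where 19.8% of all probe sets did, and the low replicate 2 array was the brightest there. KOL4 is known mainly from defence diterpenoids. Without it, a count added after the values were seen, 6 of 6 were negative with a median of -0.30, and 3 of the 6 did not overlap (5 as deposited). None of the 7 passed the test, so no change is called. These genes were grouped with earlier results of the same arrays known, and the count carries no test. The mean deviation of the 7 genes was -0.10 and -0.27 in the high bulks against 0.33 and 0.05 in the low bulks, so low replicate 1 and high replicate 2 stood farthest apart. The sum of the secondary wall markers and both actin ratios given above were also higher in the low bulks. Their part was not tested. In bulk tissue, fewer cells that express these genes and less RNA per cell cannot be told apart.

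The other signalling and response genes had differences from -0.06 to 0.23, and none of the 5 tested passed. SPY (LOC4346315), a glycosyltransferase that dampens gibberellin signalling, had 199.8 and 175.9 in the high bulks against 183.3 and 135.7 in the low bulks, a difference of 0.23 ± 0.22 (SE, limma adjusted p = 0.876). It was 0.03 without low replicate 2, 0.42 without low replicate 1, and 0.06 with either alternative scaling. GAMYB (LOC4327362), a transcription factor of the gibberellin response in rice aleurone and anthers, had 128.6 and 68.6 against 68.1 and 94.2, a difference of 0.20 ± 0.27 (limma adjusted p = 0.922). Low replicate 1 and high replicate 2 were alike for GAMYB, and the groups overlapped. Its probe set has the same suffix for shared probes as those of KO2, so the signal may not be of GAMYB alone. SLRL1, a relative of SLR1 without the DELLA motif, had a difference of 0.14, GDD1 (a kinesin-like protein also named KIN4A) 0.11 and D1 (the G protein alpha subunit) -0.06. Counting GID1, SLR1 and GF14E, which may not be GID2, 8 signalling genes were tested. Of these, 6 had a positive difference, with a median of 0.12. That direction depended on the scaling: the mean over the 8 was 0.10, but with the deposited scaling it was -0.06 and with median centring -0.05.

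**Figure D3:**
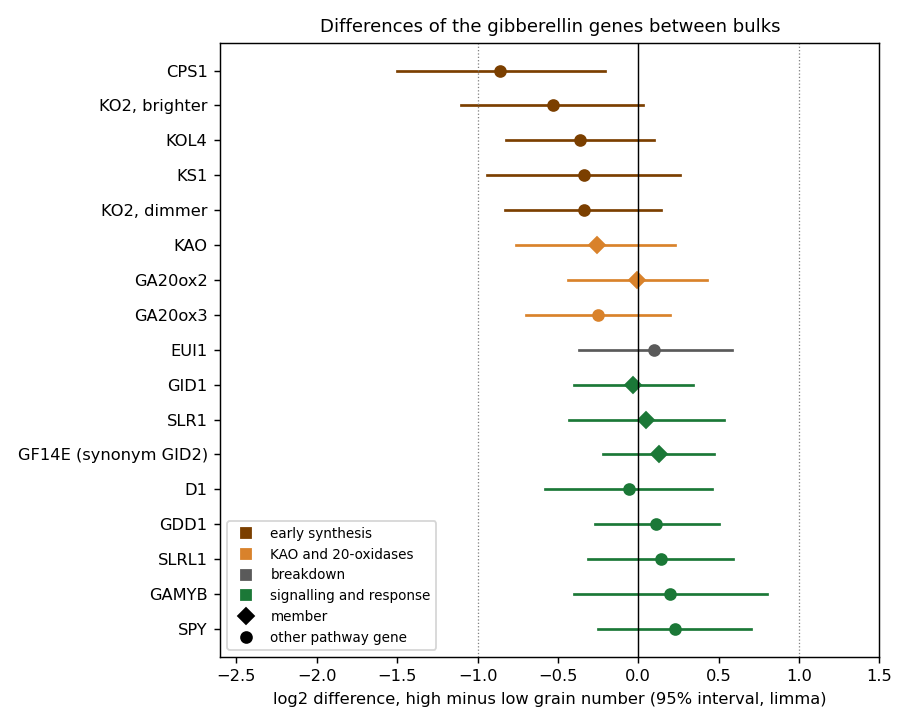
Log2 difference, high minus low grain number (horizontal axis), of the 17 gibberellin pathway probe sets tested, with limma's 95% interval as a line and genes ordered by role. Dotted lines mark a 2-fold change of intensity + 16. For dim probe sets a 2-fold change of intensity lies inside these lines. The synthesis genes lie at or left of 0, from -0.86 for CPS1 to -0.01 for GA20ox2, and only the interval of CPS1 does not include 0.

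Other settings moved these values without a call. All 7 synthesis differences were negative under 9 of the 11 alternatives, and 6 of 7 without high replicate 1 and without low replicate 2, where GA20ox2 was at 0.09 and 0.07. Their median ran from -0.51 to -0.13. Without 1 array GA20ox3 ran from -0.37 to -0.13 and KOL4 from -0.51 to -0.21. With either alternative scaling (as deposited, or median centred) the difference of all probe sets also shifted, to a median of -0.07, and 62.1% and 61.6% of them were negative. No gibberellin pathway gene passed the limma test under any of these alternatives.

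**Figure D4:**
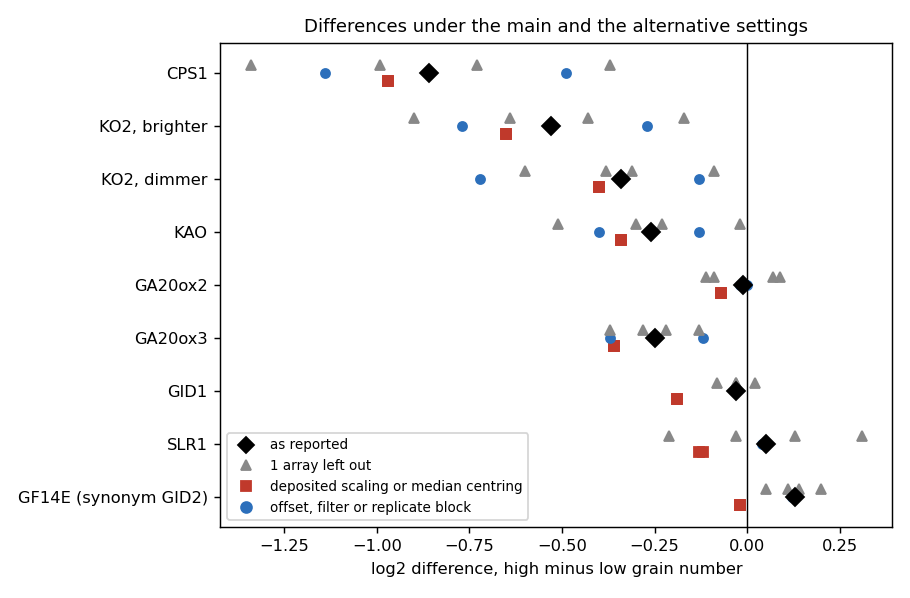
Log2 difference, high minus low grain number (horizontal axis), of the 5 tested gibberellin gene probe sets and of CPS1, KO2 and GA20ox3 as reported and under each alternative. Leaving out 1 array moved CPS1 between -1.34 and -0.37 and SLR1 between -0.21 and 0.31.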

How the data were processed

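Per the labels' protocols, total RNA was labelled with biotin and hybridised to Affymetrix arrays. Per the submitters' processing notes GCOS 1.2 was used; the deposited table holds 1 linear intensity per probe set and array, and the scaling target is not given in the sources used here. The 187 control probe sets were left out. Intensities were quantile normalised because the deposited trimmed means differed by a ratio of 1.52. They were tested as log2(intensity + 16) in limma 3.58.1 (R 4.3.3), by a fit with group as its single term and a trended eBayes step. Probe sets under the 40th percentile of mean log2 value (an intensity of 3.28) were left out. The steps were tested on simulated data. Of the probe sets other than controls, 22436 carry 1 gene; the 95 that carry several genes and the 34663 that carry none were not named. Every probe set of the 9 names was described; of the other pathway genes, those past the threshold, the 2 per role with the smallest p, and further synthesis and signalling genes chosen after their values were seen. The members and lists were chosen with earlier results of these data known. Alternatives were the deposited scaling, median centring, offsets of 1 and 64, no filter, a 60th percentile filter, each array left out and a replicate block. The number of arrays limits the precision.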

Additional observations from a re-analysis of the deposited data

How the results depend on the processing

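The gibberellin genes past the threshold were 0 of 5 probe sets and 0 of 11 other pathway genes in the limma fit and under each of the 11 alternatives. Across the 17 pathway probe sets tested, 172 of 187 differences kept their sign and 15 changed it, none with a call. The changes of sign without 1 array ran within -0.11 to 0.09 for GA20ox2, -0.08 to 0.02 for GID1, -0.21 to 0.31 for SLR1, -0.12 to 0.33 for EUI1, -0.02 to 0.31 for SLRL1, -0.19 to 0.59 for GAMYB and -0.35 to 0.23 for D1. With the deposited scaling SLR1 was at -0.13 and with median centring at -0.12, and GF14E (-0.02) and GDD1 (-0.05) took the same values in both. The cause was not tested; the median of all probe sets stood at -0.07 in both, against 0.01. The median of the 5 probe sets (-0.01) was -0.13 and -0.12 in these 2 fits, and -0.08 to 0.02 without 1 array. The mean of the 3 signalling probe sets (0.05) was -0.11 under both scalings, and that of all 8 signalling genes (0.10) was -0.06 and -0.05. The mean of the 7 synthesis genes (-0.37) was -0.56 with log2(value + 1) and -0.19 with log2(value + 64), since the offset pulls dim probe sets towards 0.

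Over all probe sets, 195 passed (53 higher and 142 lower). Median centring gave 391, of which 332 were lower. With log2(value + 1) there were 128, of which 91 were lower. No filter left 0 (0 higher, 0 lower), with 3849 at an unadjusted p under 0.05 in limma. Under the deposited scaling 233 were lower and 37 higher. Without 1 array it ran from 43 to 229 (5 to 45 higher, 36 to 184 lower), where the single remaining array takes its spread from the other group. With a replicate block 654 passed (189 higher, 465 lower); the labels give only a shared number, and arrays of the same number deviated together with a correlation of 0.111. GA20ox2, SLRL1 and KOL4 are dim, which limits what their differences can show.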

Other observations

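Relatives of the pathway enzymes, chosen after the values were seen, were dim on all arrays. CYP714C2 (LOC4351346), a cytochrome P450 of the same family as EUI1, had 29.7 and 22.6 in the high bulks against 32.7 and 19.9 in the low bulks by its brighter probe set, where the log2 difference was 0.01 ± 0.23 (SE) with a limma adjusted p of 0.998. CYP714C1 (LOC4351345) had 8.62 and 14.9 against 8.15 and 14.1 in its brighter probe set, a difference of 0.03 ± 0.21 (limma adjusted p = 0.991). For both the groups overlapped. KSL5 (LOC4329728), a kaurene synthase-like gene, read 0.7 and 8.53 in the high bulks against 10.6 and 0.6 in the low bulks, so its values differed more within a group than between the groups. KSL7 (LOC4329724), of the same kind, had 5.83 and 6.9 against 5.6 and 4.3 in its tested probe set. Its difference was 0.09 ± 0.18 (SE, limma adjusted p = 0.953). Its high arrays lay above its low arrays without overlap, as for 19.6% of all probe sets tested. KSL10 (LOC4352248) was listed at 6.95 on high replicate 1 and at 0.2 to 0.8 on the other 3 arrays, under the filter, and was not tested.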
